A study of Mus musculus with 4 samples.

Results

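The genotype difference between SFRP5-transgenic (SFRP5) and wild-type (WT) mice was compared between sorts of bone marrow progenitors, gene by gene. The quantity was a difference of differences, SFRP5 minus WT in CLP minus the same in LSK, on log2 signals relative to the 75th percentile of each array. A value above 0 means that SFRP5 stood higher against WT in CLP than in LSK, and a value below 0 the reverse. Genes on autosomes with a symbol were taken when their brightest probe was well above background on all 4 arrays, by the scanner software's flag. This left 14565 of 23068 autosomal genes on the array, out of 24288 genes with a symbol in all.

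RNA of adult bone marrow progenitors was measured on 4 Agilent arrays of 1 colour, each array being the only one of its group. The groups were WT LSK, SFRP5 LSK, WT CLP and SFRP5 CLP, where WT mice were littermates of the transgenic ones and no other treatment or allele is named. LSK cells were Lin- c-kitHi Sca-1+, and the CLP-enriched sort was Lin- c-kitLo Sca-1Lo IL7Rα+. The promoter and sequence of the transgene, and how many mice made up a sample, were not given in the sources used here. With 1 array per group nothing has a replicate check, so no test was made, and higher and lower describe these 4 arrays alone. Where 4 levels follow each other, LSK comes before CLP and, within a sort, WT before SFRP5.

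SFRP5 is a secreted protein of the Frizzled-related family, which binds Wnt ligands outside the cell and keeps them from their receptors. Wnt signals act through beta-catenin on target genes, and through other branches on calcium and cell shape, and both kinds have been linked to blood stem cell maintenance and early lymphoid choice. The LSK sort holds stem cells and multipotent progenitors, many of them slow to divide, and the CLP gate aims at progenitors that give rise to B, T and NK cells and divide more often.

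Kit and Il7r, both used in the gates, separated the sorts in the direction of the gates. The stem cell factor receptor gene Kit had a level of 5.08 in WT and 5.18 in SFRP5 within LSK, against 2.75 and 3.47 within CLP. Il7r, the interleukin-7 receptor chain, stood at -0.51 and 0.89 in the LSK arrays and at 2.52 and 3.13 in the CLP arrays, WT first in each case. Flt3, a receptor known from lymphoid progenitors and not named in the gates, was lower in CLP, at 2.95 (WT) and 3.10 (SFRP5) in LSK against 0.24 and 0.32. Cd27, a receptor of the same progenitors, stood at 1.86 and 2.74 in LSK against -0.40 and -0.01 in CLP, so these 2 went against the CLP label. The only Sfrp5 probe stood at -0.23 (WT) and -0.31 (SFRP5) in LSK, and at -0.02 and -0.00 in CLP, so it did not show the transgene in either sort. Whether that probe can see the transgene's RNA was not tested. Xist, made by female cells from the X chromosome, had levels of 4.99 (LSK) and 4.50 (CLP) in the SFRP5 arrays. In both WT arrays it was below the detection flag. Ddx3y, Eif2s3y and Kdm5d, on the Y chromosome, were lower in both SFRP5 arrays, but above background on all 4 arrays. Genotype and sex-linked expression therefore cannot be told apart, in either sort. Ebf1, the B lineage factor, was above background on 2 arrays and Gata1, the erythroid factor, is X-linked, so neither has a value.

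Across the 14565 genes the genotype difference in LSK and that in CLP did not share a direction. The LSK difference was 2-fold or more for 13% of genes (924 higher, or 6.34%, and 967 lower, or 6.64%), and the CLP difference for 8.02% (584 higher and 584 lower, 4.01% each). Of the 924 genes higher in LSK, 81 were also 2-fold higher in CLP, 102 were 2-fold lower there and 741 lay within 2-fold. Of the 967 genes lower in LSK, 81 were lower and 102 were higher in CLP. Each of these 2-fold overlaps was above the 4.01% of all genes that differed each way in CLP. The correlation across genes was -0.05, between differences that share no array. It was -0.14 for genes with a mean level of 2 or more and -0.19 at 3 or more. Genes are not independent replicates, so these values are a description.

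The difference of differences was at or above 1, a 2-fold difference, for 1563 genes (10.7%) and at or below -1 for 1743 genes (12%), which together make 22.7%. It ranged from -5.36 to 5.66, with a median of -0.06 and an SD over genes of 0.93, and was above 0 for 47% of genes. The spread depended on brightness. The SD was 1.13 for genes with a mean level below -2 and 0.60 for genes at 2 or more, where 10.6% passed 2-fold against 30.3% of the dim genes. The median also moved with brightness, from 0.19 in the dim genes to -0.25 at a mean level of 3 or more. The level of all genes hung on the scaling, since the authors' deposited signals gave a median of 0.17 and centring on each array's median gave -0.36. Of the genes past 2-fold, 47.3% were higher, against 67.3% with the authors' signals and 24.2% with median centring, so counts and list medians are read against the same over all genes. Among 7383 genes with a mean level at or above 0, 4.92% were 2-fold higher and 10.4% were 2-fold lower.

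Of the 3306 genes past 2-fold, 1168 differed 2-fold between genotypes in LSK alone and 544 in CLP alone. Another 204 differed 2-fold in both sorts with opposite directions, 27 differed 2-fold in both in the same direction, and 1363 passed only through the sum of 2 smaller differences. A gene could also pass because 1 array stood more than 2-fold away from the other arrays while those lay within 2-fold of each other. WT LSK was that array most often, high for 184 genes and low for 133. SFRP5 LSK was high for 112 and low for 95, WT CLP high for 52 and low for 88, and SFRP5 CLP high for 45 and low for 55. No array stood apart in this sense for the other 2542.

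**Figure D1:**
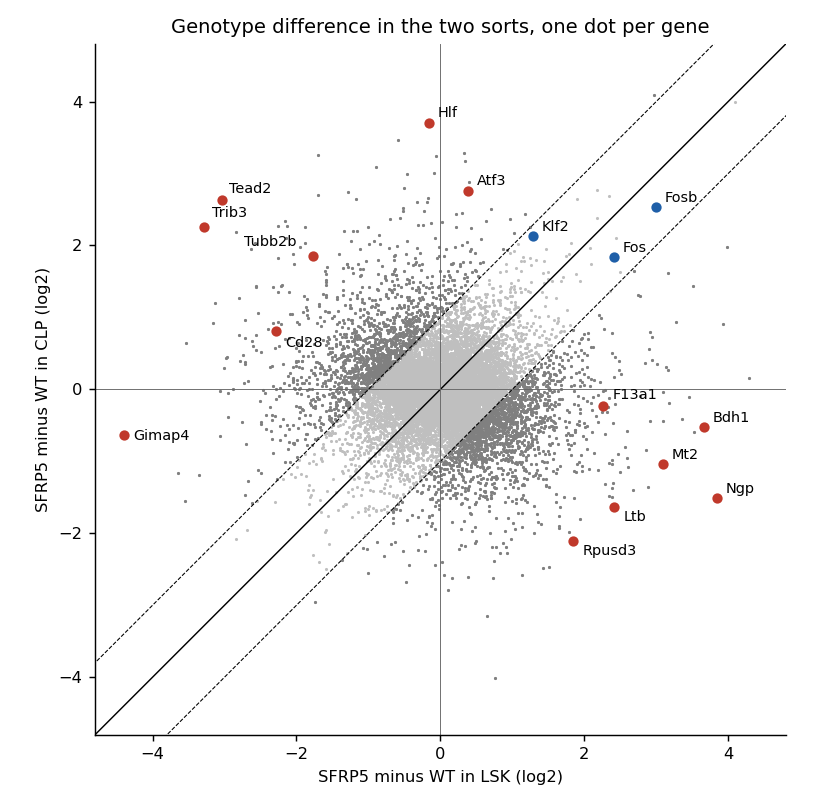
Each dot is a gene, with the SFRP5 minus WT difference in LSK on the x axis and in CLP on the y axis (both log2). The solid line marks equal differences, and dots beyond the dashed lines, in darker grey, have a difference of differences of at least 1 in size. Red dots are named genes past that limit, and Fos, Fosb and Klf2, in blue, are higher in SFRP5 in both sorts and lie within it.

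Replication-dependent histone genes, which make the histones that package new DNA in S phase, were the list with the lowest median. Of 55 genes listed, 36 had a value. Of these, 26 were at or below -1, against 12% of all genes and 7.48% of genes with a mean level of 3 or more. Among genes spanning up to 2 kb with a mean level of 2 or more, the share was 30.7%. It was 23.5% there without the histone, ribosomal protein and respiratory chain lists. The histone median was -1.34 where all genes had -0.06, with a median genotype difference of 0.82 in LSK and -0.51 in CLP. Hist1h1a, a linker histone, stood at 1.73 (WT) and 2.86 (SFRP5) in LSK, and at 4.42 and 3.41 in CLP, a difference of differences of -2.14. Hist1h2ab, a core H2A gene, stood at 1.41, 2.59, 3.63 and 2.65 in the same order, a difference of differences of -2.17. Hist1h4k, an H4 gene, stood at 6.33, 7.24, 8.05 and 7.29, and its further probe gave -1.63 beside -1.67. In these genes WT LSK was lowest, WT CLP was highest and both SFRP5 arrays lay between. WT LSK was lowest and WT CLP highest in 26 of the 36 genes, against 18.1% of all genes and 34.4% of genes with a mean level of 2 or more. Such an order makes the difference of differences negative, so it describes the same values and adds no support. The sorts were thus farther apart in WT than in SFRP5, with the summed histone signal rising from 9.72 in WT LSK to 11.36 in WT CLP, and from 10.56 in SFRP5 LSK to 10.81 in SFRP5 CLP (log2 of the sum over the 36 genes).

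**Figure D2:**
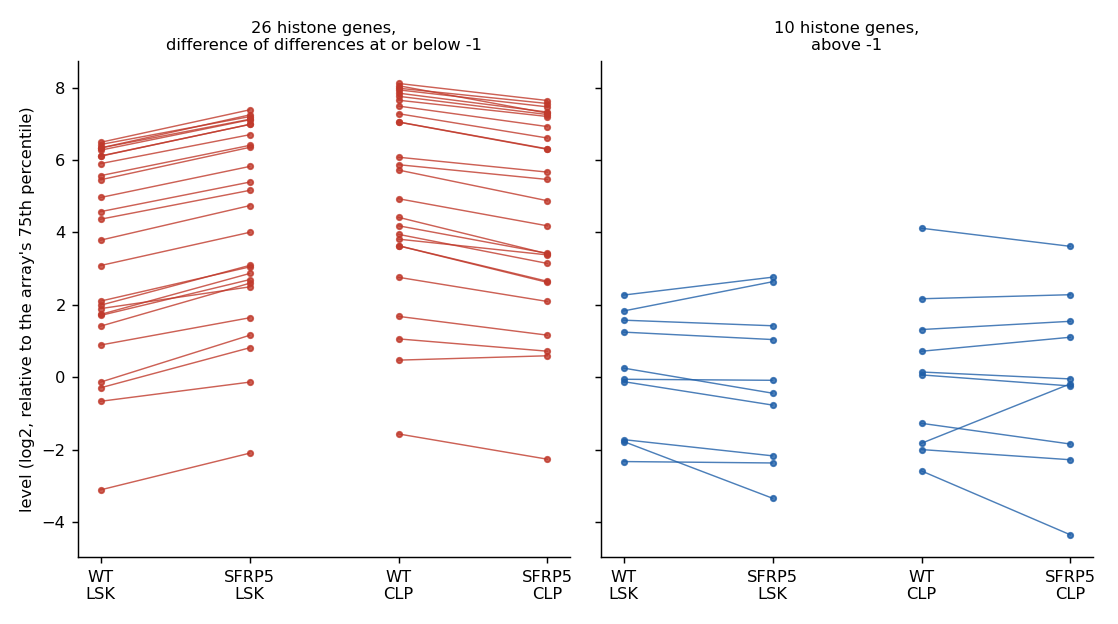
Levels of the 36 listed histone genes (log2, relative to the 75th percentile of each array) are drawn with a line from WT to SFRP5 within each sort. The left panel holds the 26 genes with a difference of differences at or below -1, where all lines go up in LSK and 25 go down in CLP, and the right panel holds the other 10.

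Among the other 10 histone genes, Hist1h1b alone was both higher in SFRP5 than in WT LSK and lower in SFRP5 than in WT CLP, and its value of -0.99 lay just short of the limit. Hist1h2ac, an H2A gene, went the other way, at -0.12 (WT) and -0.77 (SFRP5) in LSK, and at -1.83 and -0.18 in CLP, a difference of differences of 2.29. Hist1h2bc gave 0.59, Hist2h2be 0.39 and Hist1h2bg 0.38, all of them H2B genes. H1f0, at -0.20, is a replacement linker histone that the list should not have held, since it is made outside S phase. Many histone genes are near-identical copies, so a probe may read several of them, and the 26 genes are not 26 separate measurements. All 4 further probes in the list had the sign of the main probe, with a median of -1.49.

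Promoters of H2B genes from both sides of this split are shown because they carry the same element and sat on different sides of the 2-fold limit. The octamer ATTTGCAT, known from H2B genes as a binding site of Oct-1, is in capitals, and the 250 bases before the transcription start are given 5′ to 3′ from RefSeq on GRCm38.p6.

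Hist1h2bb, chr13:23746484-23746733, plus strand: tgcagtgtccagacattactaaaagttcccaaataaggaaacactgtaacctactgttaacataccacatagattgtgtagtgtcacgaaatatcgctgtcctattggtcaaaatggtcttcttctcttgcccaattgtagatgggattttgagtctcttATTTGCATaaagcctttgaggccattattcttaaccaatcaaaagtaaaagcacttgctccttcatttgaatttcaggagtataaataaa

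Hist1h2bm, chr13:21721794-21722043, plus strand: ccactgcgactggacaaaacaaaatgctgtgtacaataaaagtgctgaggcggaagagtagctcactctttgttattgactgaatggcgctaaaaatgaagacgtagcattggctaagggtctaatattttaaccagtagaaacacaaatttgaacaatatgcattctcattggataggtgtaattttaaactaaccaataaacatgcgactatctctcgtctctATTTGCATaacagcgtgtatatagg

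Hist2h2bb, chr3:96269450-96269699, plus strand: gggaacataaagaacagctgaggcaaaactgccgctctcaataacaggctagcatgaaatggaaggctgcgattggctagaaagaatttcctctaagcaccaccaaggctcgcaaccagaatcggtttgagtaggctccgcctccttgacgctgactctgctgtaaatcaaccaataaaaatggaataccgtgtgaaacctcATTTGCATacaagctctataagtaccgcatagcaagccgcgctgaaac

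Hist1h2bg, chr13:23571150-23571399, plus strand: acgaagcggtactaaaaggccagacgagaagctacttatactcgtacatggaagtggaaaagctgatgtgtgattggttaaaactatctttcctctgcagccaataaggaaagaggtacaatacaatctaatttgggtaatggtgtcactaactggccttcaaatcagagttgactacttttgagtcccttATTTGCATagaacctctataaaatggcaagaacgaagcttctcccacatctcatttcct

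Hist1h2bb had a difference of differences of -2.0 and Hist1h2bm of -1.24, with the octamer starting 90 and 25 bases before the start. Hist2h2bb, at -0.24, and Hist1h2bg, at 0.38, hold it 48 and 59 bases before the start. Hist1h2bb stood at 1.70 (WT) and 2.69 (SFRP5) in LSK, and at 3.63 and 2.62 in CLP. Hist1h2bg, in the same order, stood at 1.57, 1.42, 1.32 and 1.54, within 2-fold of each other on all arrays. The octamer, searched on both strands of these 250 bases, was in 1.60% of 32851 promoters. Promoters were matched for 32 of the 36 histone genes, and it was in 5 of 24 with a difference of differences at or below -1 and in 3 of the other 8.

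Cytosolic ribosomal protein genes, the protein parts of the translating ribosome, had smaller values that nearly all ran the same way. Of 75 with a value, 17 were at or below -1. That share was 12% over all genes and 7.48% over genes with a mean level of 3 or more. At or above 1 there were 0, where 10.7% of all genes were. Below 0 there were 74, where 53% of all genes were, and 67.3% of genes with a mean level of 3 or more. Among genes spanning 2 to 5 kb with a mean level of 2 or more, 80.2% were below 0 and 14.3% at or below -1. Without the histone, ribosomal protein and respiratory chain lists these shares were 76.5% and 12.8%. The median was -0.73, from 0.31 in LSK and -0.45 in CLP. Rplp1, of the ribosomal stalk, stood at 5.19 (WT) and 5.94 (SFRP5) in LSK, and at 7.03 and 6.15 in CLP, a difference of differences of -1.62. Rps3 was the only member above 0, at 0.39, and its further probe gave -0.56. Of 53 further probes, 51 had the sign of the main probe, with a median of -0.72. WT LSK was the lowest array and WT CLP the highest in 73 of the 75 genes, against 34.4% of genes with a mean level of 2 or more. Here too the order describes the same values as the difference of differences. Quantile and cyclic loess normalization, which even out trends with brightness, gave list medians of -0.38 and -0.36. Ribosomal protein genes have many processed pseudogenes, so a probe may read more than 1 locus.

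Nuclear-encoded respiratory chain genes, subunits of the complexes that pass electrons to oxygen and make ATP in mitochondria, were similar in size. Of 56 with a value, 9 were at or below -1, where 12% of all genes were, and 0 at or above 1. Of the 56, 55 were below 0, where 53% of all genes were, and the median was -0.71 (0.31 in LSK, -0.38 in CLP). Among genes spanning 5 to 10 kb with a mean level of 2 or more, 72.6% were below 0. Without the histone, ribosomal protein and respiratory chain lists that share was 71.0%. Ndufa11, of complex I, stood at 0.11 (WT) and 1.23 (SFRP5) in LSK, and at 2.54 and 1.49 in CLP, a difference of differences of -2.16. Cox8a, of complex IV, had -1.55, with -1.26 by its further probe. Ndufs1, the largest subunit of complex I, stood at 0.00. Of 16 further probes in the list, 15 had the sign of the main probe. Quantile and loess normalization gave medians of -0.41 and -0.44.

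Mitosis genes had a median of -0.58, with 42 of 45 below 0, where 53% of all genes were. Only 3 of the 45 were at or below -1, where 12% of all genes were. Ube2c, which helps the anaphase-promoting complex tag mitotic proteins, stood at 2.68 (WT) and 3.65 (SFRP5) in LSK, and at 5.48 and 4.72 in CLP, a difference of differences of -1.72. Kif2c, a kinesin that shortens microtubules at kinetochores, had -1.71. Mki67, the Ki-67 proliferation marker, was nearly level, at 4.65 and 4.73 in LSK and 5.75 and 6.03 in CLP, with 0.20 by the main probe and 0.08 by the further one. DNA replication and G1-S genes had a median of -0.45, with 5 of 38 at or below -1, near the 12% of all genes. After quantile and loess normalization the median was -0.18 and -0.20. MYC and ribosome biogenesis genes had a median of -0.23, which ran from -0.53 to 0.09 over the alternative settings. Of the 36, 2 were at or below -1, where 12% of all genes were.

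The difference of differences also went with the length of the gene in the genome, for genes well above background. RefSeq (GRCm38.p6) gave a span for 13666 of the genes. Genes with a mean level of 2 or more were split by span. The median was -0.70 for 231 genes spanning up to 2 kb and -0.56 for 399 genes of 2 to 5 kb. It was -0.38 for 470 genes of 5 to 10 kb and -0.10 for 859 genes of 20 to 50 kb. For 237 genes over 100 kb it was 0.11. Genes spanning up to 2 kb were below 0 in 90.5% of cases and genes over 100 kb in 42.2%. With the histone, ribosomal protein and respiratory chain lists left out, the shortest class still had a median of -0.64 (196 genes) and the longest 0.11 (236 genes). The median spans were 0.49 kb for the histone genes, 3.18 kb for the ribosomal protein genes, 7.60 kb for the respiratory chain genes and 23 kb for the mitosis genes. The part of gene length and of brightness in the list values was not tested.

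**Figure D3:**
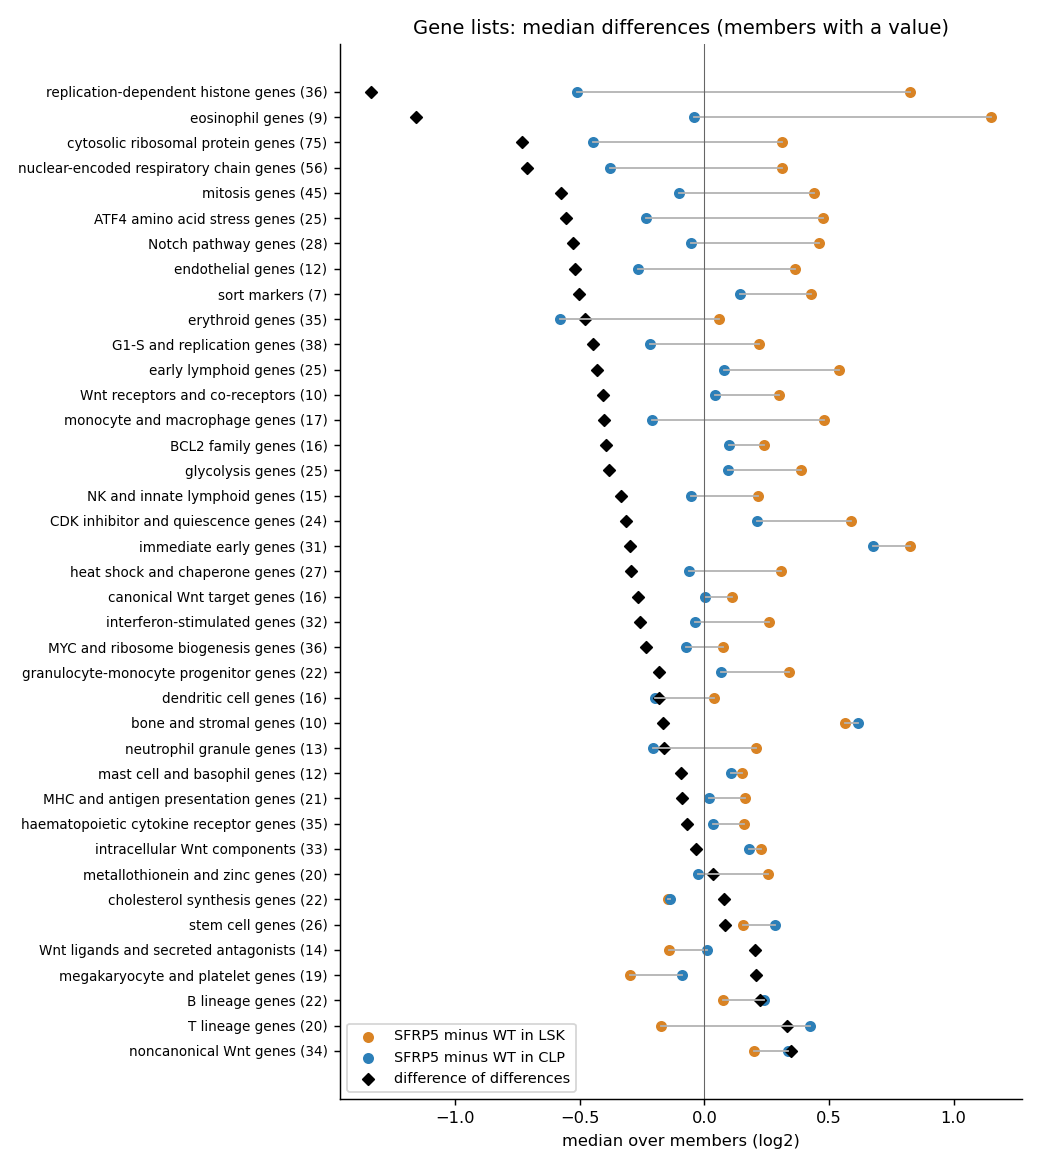
Medians over the members with a value (number in brackets) are shown for 39 gene lists, as the SFRP5 minus WT difference in LSK (orange), the same in CLP (blue) and the difference of differences (black diamonds), all log2. The histone and eosinophil lists lie below -1, and the immediate early list is high in both sorts, with 0.82 in LSK and 0.68 in CLP.

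Eosinophil genes, which make the granule proteins of that white cell, had a median of -1.16, nearly all of it from LSK (1.15, with -0.04 in CLP). Of 11 listed, 9 had a value and 7 of these were at or below -1, where 12% of all genes were. Prg2, the major basic protein, stood at 0.31 in WT LSK and 2.50 in SFRP5 LSK against 7.93 in WT CLP and 7.47 in SFRP5 CLP, a difference of differences of -2.65. Epx, the eosinophil peroxidase, stood at -1.91, 0.51, 5.52 and 5.97 in the same order. Ear1, a granule ribonuclease with close paralogs, had -2.87. The list was not uniform, since Il5ra, the interleukin-5 receptor chain, had 0.36 and Siglec5 had 0.66 with -0.88 by its further probe. The summed signal of the list stood at 2.33 (WT) and 3.96 (SFRP5) in LSK, and at 8.91 and 8.73 in CLP (log2 of the sum), so the WT LSK array had least of it and both CLP arrays had far more. More of such cells and more RNA per cell cannot be told apart in these sorted pools.

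Erythroid genes also stood much higher in CLP than in LSK, and differed by sort in a less even way. Of 35 with a value, 9 were at or below -1 and 1 was at or above 1, where 12% and 10.7% of all genes were. The median was -0.48 (0.06 in LSK and -0.58 in CLP). Blvrb, biliverdin reductase B, stood at -0.99 (WT) and 0.51 (SFRP5) in LSK, and at 4.79 and 3.93 in CLP, a difference of differences of -2.36. Fech, which puts iron into haem, had -1.86. Uros, another enzyme of haem synthesis, had 1.37, with -1.98, -4.08, 1.25 and 0.53 in the same order, but -0.027 with normexp background correction. Klf1, the erythroid transcription factor, had -0.11, with genotype differences of -0.49 in LSK and -0.60 in CLP.

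Neutrophil granule genes were split, with 6 of 13 at or below -1 and 3 at or above 1, where 12% and 10.7% of all genes were. Their median was -0.16, which ran from -1.74 among brighter genes to 0.07 with the authors' signals. Ngp, a granule protein, had the lowest value of all 14565 genes, at -5.36, a 41.0-fold difference of ratios. It stood at -3.79 (WT) and 0.05 (SFRP5) in LSK, and at 0.56 and -0.95 in CLP, so WT LSK was far below the other arrays. S100a9, part of calprotectin, had -2.46 and S100a8, its partner, had -1.84. Retnlg, a secreted resistin-like protein of neutrophils, went the other way, at 2.66, or 0.87 with normexp background correction. F13a1, the coagulation factor XIII A chain of monocytes and platelets, stood at -0.67 (WT) and 1.60 (SFRP5) in LSK, and at 3.26 and 3.03 in CLP. Its probes gave -2.50 and -2.33. C1qc, of complement C1q, had -3.71, but C1qa had 0.85 and C1qb 0.73, though the 3 chains form 1 protein.

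Lymphoid genes did not move as a block. T lineage genes had a median of 0.33 (0.03 with median centring, 0.56 with the authors' signals). Of 20, 5 were at or above 1 and 1 at or below -1, where 10.7% and 12% of all genes were. Gimap4, a GTPase of lymphocyte survival, stood at 1.44 (WT) and -2.95 (SFRP5) in LSK, and at 1.74 and 1.11 in CLP, and its 3 probes gave 3.77, 1.72 and 1.35. SFRP5 LSK was the low array by all 3 probes. Cd28, the costimulatory receptor, had 3.09 by 1 probe. Zap70, a kinase of the T cell receptor, had 1.46, and 1.43 by its further probe.

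Early lymphoid genes had a median of -0.43. Of 25, 5 were at or below -1 and 1 at or above 1, where 12% and 10.7% of all genes were. Ltb, lymphotoxin beta, stood at -0.47 (WT) and 1.94 (SFRP5) in LSK, and at -1.32 and -2.95 in CLP, a difference of differences of -4.05. SFRP5 was thus 5.34-fold higher in LSK and 3.11-fold lower in CLP. Ccr7, the chemokine receptor that guides lymphocytes to lymph nodes, had -2.98. Rag1, a V(D)J recombinase subunit, had 1.55 by the main probe and -0.71 by the further one. B lineage genes had a median of 0.22 (-0.08 with median centring). Of 22, 5 were at or above 1 and 4 at or below -1, where 10.7% and 12% of all genes were. Pax5, the B lineage commitment factor, had 1.94 by a probe that gave 0.42 in WT LSK and -1.32 in SFRP5 LSK, and -0.19 by a further probe. The surrogate light chain genes Vpreb1 and Vpreb2 had -1.24 and -1.02, and Igll1, which encodes their partner, had 1.47.

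Stem cell genes had a median of 0.08 (-0.21 with median centring). Of 26, 4 were at or above 1 and 1 at or below -1, where 10.7% and 12% of all genes were. Hlf, a transcription factor of blood stem cells, stood at 4.83 in WT LSK and 4.67 in SFRP5 LSK, against -4.17 (WT) and -0.46 (SFRP5) in CLP. The difference of differences was 3.87, a 14.6-fold difference of ratios, nearly all of it from the CLP arrays. Hoxb4, a self-renewal factor, had 1.41, also from CLP, where SFRP5 was higher by 1.64. Mecom, which encodes Evi1, had 1.82 (0.22 with normexp), from LSK, where the genotype difference was -1.82. Procr, the stem cell surface receptor EPCR, was not above background in WT CLP alone, and stood at 2.46 in WT LSK, 2.22 in SFRP5 LSK and -0.55 in SFRP5 CLP. Against its own signal in WT CLP, which was above the lowest signal to pass the flag there, its difference of ratios was 40.2-fold higher. That signal did not pass the flag, so the value is not a strict limit.

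In the Wnt pathway lists 2 of 14 ligands and antagonists, 2 of 10 receptors, 2 of 33 intracellular components and 1 of 16 target genes were past 2-fold, where 22.7% of all genes were. Over the alternative settings the medians ran from -0.09 to 0.43 for ligands, from -0.71 to 0.03 for receptors and from -0.33 to 0.19 for intracellular components. Of the ligands and secreted antagonists, 14 of 35 had a value, with 2 at or below -1, 0 at or above 1 and a median of 0.20. Wnt5a, a ligand of the noncanonical branch, stood at 3.12 (WT) and 2.57 (SFRP5) in LSK, and at 2.18 and 2.39 in CLP, a difference of differences of 0.77. Wnt5b, its close relative, had -1.78. Of the receptors and co-receptors, 10 of 21 had a value, with a median of -0.41. Fzd6, a Frizzled receptor, stood at 1.17 (WT) and -0.19 (SFRP5) in LSK, and at -2.28 and -0.60 in CLP, a difference of differences of 3.04 by its only probe. Fzd5 had -1.43, but -0.62 with normexp and 0.59 by its further probe. Lrp5, a co-receptor, had -0.59, and its paralog Lrp6 had 0.50 by the main and -1.22 by the further probe.

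Intracellular Wnt components had a median of -0.03, with 1 of 33 at or above 1 and 1 at or below -1. Aes, a Groucho-family corepressor, had -1.34, and -0.76 by its further probe. Bcl9, a beta-catenin cofactor, had 1.1, but 0.80 with median centring and 0.52 by its further probe. Axin1, a scaffold of the destruction complex, had -0.94. Canonical target genes had a median of -0.27, with 1 of 16 at or below -1 and 0 at or above 1. That gene was Id2, an inhibitor of E proteins, at -1.53, or -0.71 with normexp. Axin2, the usual reporter of the pathway, was above background on 2 arrays and has no value, and 19 of the 35 listed targets have none. Genes of the noncanonical branches had a median of 0.35, which ran from 0.05 with median centring to 0.58 with the authors' signals. Of 34 genes 4 were at or above 1 and 5 at or below -1, near the 10.7% and 12% of all genes. Nfatc2, a calcium-regulated factor, had 1.32, but -0.18 by its further probe and 0.22 with normexp, and Vangl1, of planar polarity, had -2.06. Notch pathway genes had a median of -0.53, with 9 of 28 at or below -1, where 12% of all genes were. Hes1, a Notch target, stood at -2.27 (WT) and -0.31 (SFRP5) in LSK, and at -0.38 and 0.17 in CLP, a difference of differences of -1.41.

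Genes that respond to metals and to amino acid shortage held some of the largest single values, in both directions. Mt2, a metallothionein that binds zinc and copper, stood at -1.79 (WT) and 1.30 (SFRP5) in LSK, and at 4.81 and 3.77 in CLP, a difference of differences of -4.13. Mt1, next to it in the genome, had -2.62, but its further probe gave 1.19. The metallothionein and zinc list did not move together. Of its 20 genes 17 lay within 2-fold, where 22.7% of all genes did not, and the median was 0.04 (-0.26 with median centring). Among ATF4 targets, 8 of 25 were at or below -1 and 2 were at or above 1, where 12% and 10.7% of all genes were. Their median was -0.55, and it ran from -0.85 to -0.33 over the alternative settings. Sesn2, a sestrin that restrains mTORC1, stood at -0.47, 1.18, 1.06 and -0.84 in the same array order, a difference of differences of -3.55. Trib3, a pseudokinase that feeds back on ATF4, had 5.53, with -0.98, -4.26, -3.62 and -1.37 in the same order.

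Immediate early genes, which cells switch on within minutes of a stimulus, were mostly higher in SFRP5 in both sorts. Their median was 0.82 in LSK and 0.68 in CLP. In LSK 15 of 31 were 2-fold higher and 0 lower, where 6.34% and 6.64% of all genes were, and in CLP 12 were higher and 4 lower, where 4.01% of all genes were each way. The difference of differences had a median of -0.30, with 7 of 31 at or below -1 and 2 at or above 1, where 12% and 10.7% of all genes were. Fos and Fosb, parts of AP-1 and chosen after their values were seen, were higher in SFRP5 by 2.41 and 3.0 in LSK and by 1.84 and 2.53 in CLP. Atf3, a stress-induced factor, had 2.38 (0.88 with normexp background correction), from CLP, where SFRP5 was higher by 2.76. Gadd45g, a growth arrest gene, had -2.30, with 1.02 in LSK and -1.28 in CLP.

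Genes with several probes give a repeat measurement within the arrays. Among genes past 2-fold, 722 had a further probe above background on all arrays, and 65.9% of these further probes had the sign of the main one. Only 29.6% were also 2-fold the same way (95% Wilson interval 26.4% to 33.1%, which covers counting error only). The share was 36.8% for lower and 19.8% for higher genes. Genes with several probes leaned below 0 as a whole, with every probe below 0 for 1390 and above 0 for 860. The larger share is therefore not read as better support for lower genes. Over 3930 genes the values of main and further probe correlated at 0.24, and the SD between probes of a gene was 0.82, against a median of 0.18 between replicate spots of 1 probe. A probe of the same gene may read another transcript end, and probes of a gene share the labelled RNA, so their likeness says nothing of mice or of amplification.

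**Figure D4:**
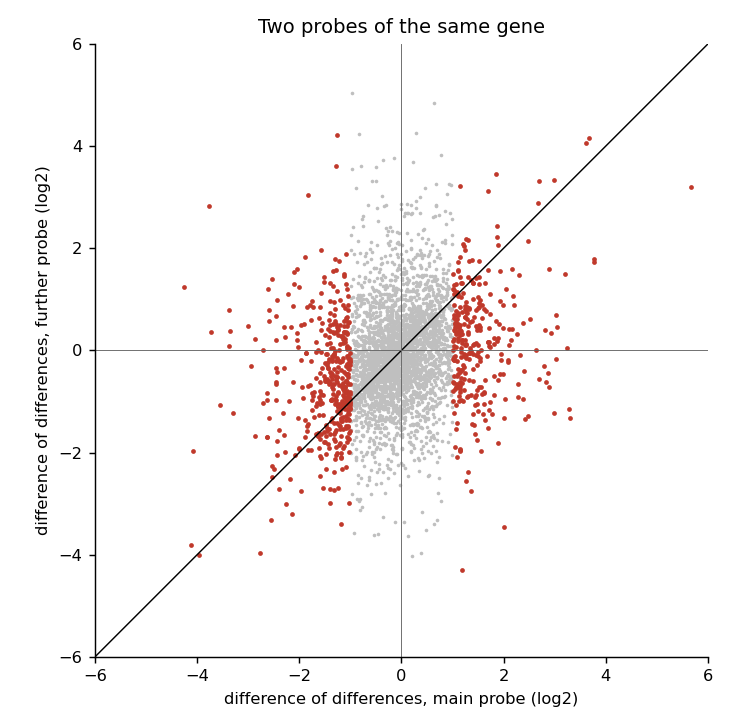
Each dot is 1 of 3930 genes, with the difference of differences by its brightest probe on the x axis and by its next brightest probe on the y axis (log2). Red dots passed 2-fold by the main probe, and 476 of these 722 have the same sign on both axes.

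Every probe was 2-fold or more higher for 55 genes and lower for 134 of the 3930, which leaned below 0 as a whole. The genes named next were chosen for the likeness of their probes, so that likeness is no support for them. Rfx7, a DNA-binding factor of the RFX family, stood at -1.15 (WT) and -2.95 (SFRP5) in LSK, and at -3.06 and -1.19 in CLP, and its further probe at -1.69, -3.84, -3.44 and -1.42. These make 3.67 and 4.17. Tubb2b, a beta-tubulin with close paralogs, stood at -0.49, -2.26, -0.26 and 1.59 in the same order, with 3.62 and 4.06 by its probes. In both genes SFRP5 was more than 3-fold lower in LSK and more than 2-fold higher in CLP by each probe.

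Tead2, a TEAD factor of the Hippo pathway, had the highest value of all genes, 5.66. It stood at 0.17 (WT) and -2.86 (SFRP5) in LSK, and at -2.75 and -0.12 in CLP. Its further probe gave 3.19, with nearly the same difference in LSK (-2.74 beside -3.03) and a smaller one in CLP (0.45 beside 2.63). Cxcr6, a chemokine receptor of T and NK cells, had 2.99 and 3.34. Hnmt, which methylates histamine, had 2.70 and 3.31. Neb, the muscle protein nebulin, had 2.48 and 2.14, but 0.80 by the main probe with normexp. It was lower in SFRP5 in LSK by both probes (-3.65 and -2.27), and in CLP the probes gave -1.17 and -0.13.

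On the lower side, Rpusd3, a pseudouridine synthase of mitochondria, stood at -2.06 (WT) and -0.21 (SFRP5) in LSK, and at -0.50 and -2.61 in CLP, and its probes gave -3.96 and -4.01. Urgcp had -2.78 and -3.97, and Engase, a cytosolic glycosidase, -2.39 and -2.72. Flad1, the FAD synthase, had -2.54 and -2.47. Mrpl43, of the mitochondrial ribosome, stood at 0.99, 3.03, 2.51 and 2.35 in the same array order, with -2.19 and -2.51, nearly all from LSK. Poln, a DNA polymerase, had -4.11 and -3.81, but its main probe took the value from LSK (3.52) and its further probe from CLP (-3.31), so the probes did not show the same pattern.

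**Figure D5:**
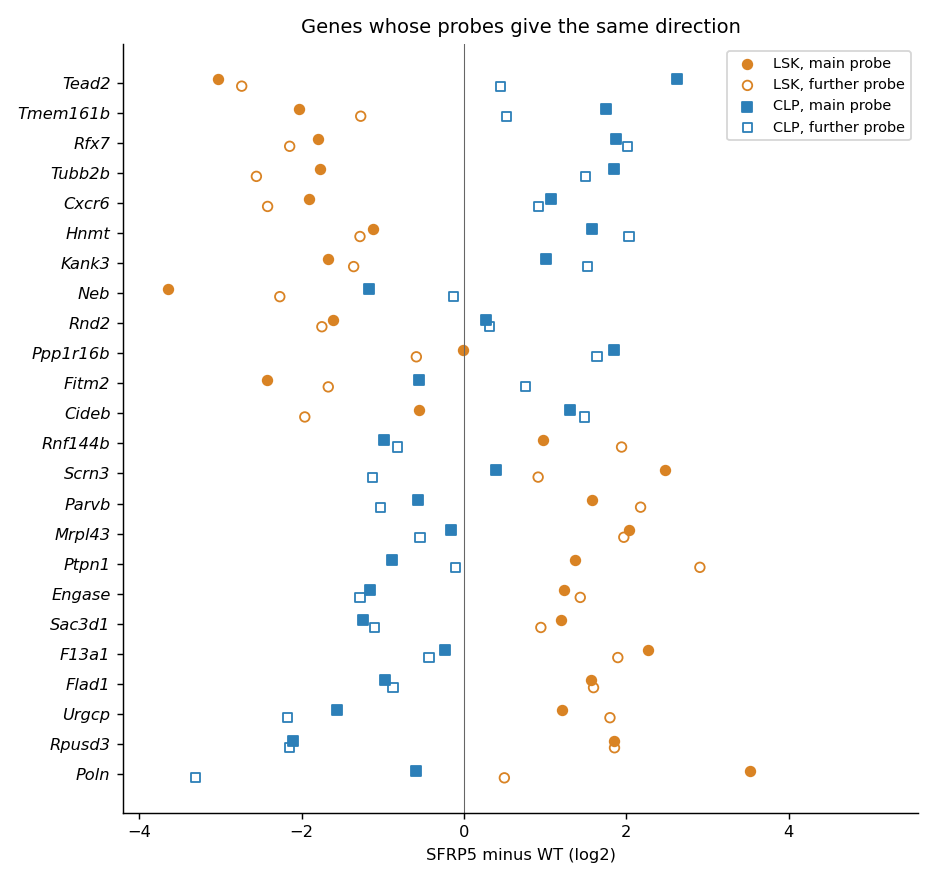
For the 24 genes whose probes gave the same direction by the widest margin, the SFRP5 minus WT difference (log2) is shown in LSK (orange circles) and in CLP (blue squares), filled for the main probe and open for the further one. In the upper 12 genes CLP lies to the right of LSK, and in the lower 12 to its left, by both probes.

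Other large values had less support from probes. Dhx34, an RNA helicase, had -3.76 by its main and 2.82 by its further probe, and Zfp503, a zinc finger gene, -4.25 and 1.24. Phxr4 had 3.92, Bdh1, a ketone body enzyme, -4.19, and Tnni2, a muscle troponin, -3.97, each by 1 probe. Bdh1 stood at -3.56 in WT LSK and 0.10 in SFRP5 LSK, and at 0.63 and 0.10 in CLP, so WT LSK alone was low.

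A further 1048 genes were above background on all arrays but 1, and were given an approximate bound. For the dim array it took the lowest signal that passed the flag there, or the gene's own if higher. A gene that did not pass may lie above that signal, so the bound is not strict. The dim array was SFRP5 LSK for 356, WT CLP for 297, SFRP5 CLP for 249 and WT LSK for 145, and 1 gene lost its value to an outlier spot. The dim array fixes the side of the bound. A gene dim in SFRP5 LSK or WT CLP can only be counted as higher, and a gene dim in WT LSK or SFRP5 CLP only as lower. By that bound 405 genes were 2-fold or more higher, while 207 were lower by as much. These counts therefore do not show an excess on either side. Angptl1, an angiopoietin-like secreted protein, was not above background in SFRP5 LSK, and its difference of ratios was 105-fold higher by the bound. Lmo1, a LIM-only transcription cofactor, was not above background in WT LSK, and was 41.2-fold lower by the bound. A further 2343 genes were above background on 1 or 2 arrays and 5112 on none.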

How the data were processed

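The deposited files hold the processed intensity of each spot in 1 colour, which the authors made with background subtraction in Feature Extraction (Agilent, version 10.10.1.1 per the file headers). Cy3 cDNA was amplified from 6.1 ng of total RNA, per the labels' protocols, and all 4 arrays lie on 1 slide and were scanned once.

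Here log2 intensities were taken and centred by subtracting the array's 75th percentile (227 to 291 before logs) over 59305 non-control spots. Outlier spots (128 to 160 per array) were left out, spots of a probe were averaged, and the brightest probe stood for a gene. Probes above background made up 65.3% to 70.1% of 55681 per array. A gene dim on 1 array was given a bound, from the lowest signal passing the flag there or its own if higher. Updated names came from RefSeq (GRCm38.p6), through Entrez IDs.

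The members, the 39 lists and the rule for named genes were chosen with earlier results of these data known. From genes with a level of 0 or more on some array the rule took the extreme 10 each way, and from genes with several probes the extreme 12 each way by the probe nearest 0. From genes with opposite directions it took 5 each way, those whose smaller genotype difference of the 2 sorts was largest. It also took the 2 highest and 2 lowest per list, and the sort and lineage genes given first. Genes named from lists beyond these were chosen after their values were seen. Some genes that the rule took are not reported here. Scripts were tested on simulated data. Python 3.11.15, pandas 2.3.3, R 4.3.3 and limma 3.58.1 were used.

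Alternatives were quantile, cyclic loess and median scaling, normexp, the authors' deposited table, no filter, brighter genes, the mean of probes, outlier spots kept and 4-fold.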

Additional observations from a re-analysis of the deposited data

Results flagged for a closer look

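The following results stand out because SFRP5 was higher than WT in 1 sort and lower in the other. With 1 array per group none of these differences between sorts was tested. Among the genes of opposite direction taken by rule, the difference of differences was 5.66 for Tead2, 3.92 for Phxr4, 3.62 for Tubb2b, 3.78 for Tmem161b and 3.08 for Lrrk2, all lower in LSK and higher in CLP. It was -5.36 for Ngp, -4.05 for Ltb, -3.76 for Dhx34, -3.55 for Sesn2 and -3.30 for Nek8, all higher in LSK and lower in CLP. Of these, Tead2, Tubb2b and Tmem161b have a further probe of the same sign (3.19, 4.06 and 1.79), Dhx34 has 1 of the opposite sign, and the other 6 have none. The rule ranked genes by the smaller of their genotype differences in LSK and CLP. Other genes of opposite direction had a more extreme difference of differences than some of these, such as F2rl2 at 3.46 and Mt2 at -4.13.

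The median genotype difference of 4 lists was above 0.25 in LSK and below -0.25 in CLP. Their difference of differences was -1.34 for replication-dependent histone genes, -0.73 for cytosolic ribosomal protein genes, -0.71 for nuclear-encoded respiratory chain genes and -0.52 for endothelial genes. The endothelial median rests on 12 genes, led by Stab2 at -2.87, whose further probe gave 0.21.

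Xist, outside the autosomal genes compared, had levels of 4.99 (LSK) and 4.50 (CLP) in the SFRP5 arrays and was below the detection flag in both WT arrays. Its difference of differences was -0.34. Among Y-linked genes it was -0.17 for Ddx3y, -0.88 for Eif2s3y and 0.63 for Kdm5d. For Uty it was -0.73, by its probe above background on all arrays.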

How the results depend on the processing

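The values rest on 1 array per group, on a gene's brightest probe and on the scaling. The authors' table and median scaling move all genes by nearly the same amount, so that the median over genes, -0.06, became 0.17 and -0.36. Of the genes past 2-fold, 47.3% were higher, against 67.3% by the authors' table and 24.2% by median scaling. It was 36.1% with normexp, 36.8% among brighter genes and 54.4% without the filter.

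Counts at or above 1 and at or below -1 were 946 and 2963 with median scaling, 575 and 1019 with normexp, 3796 and 3188 without the filter, 608 and 1044 among brighter genes, and 329 and 318 at 4-fold. The authors' table gave 2339 and 1138. The settings not named here kept both counts within 1.5 times. The share of 2-fold genes repeated by a further probe was 39.8% with median scaling and 21.8% with normexp.

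In this section lists were read at a fixed median of 0.5 in size, not against the median of all genes. The histone and eosinophil lists kept that size and sign under all 9 alternatives, from -1.63 to -0.93 and from -1.46 to -0.85. The medians below no longer reached it. With quantile, loess, normexp and the authors' table, in this order, sort markers gave -0.33, -0.29, -0.48 and -0.27, endothelial genes -0.48, -0.47, -0.43 and -0.29, ATF4 genes -0.34, -0.35, -0.40 and -0.33, and Notch genes -0.45, -0.44, -0.38 and -0.30. With quantile and loess, ribosomal protein genes gave -0.38 and -0.36 and respiratory chain genes -0.41 and -0.44, the latter -0.49 by the authors' table. Mitosis genes gave -0.49 with loess, -0.45 with normexp and -0.35 by the authors' table. Without the filter, endothelial genes gave -0.39 and ATF4 genes -0.45, and with the mean of probes Notch genes gave -0.43. The authors' table moved the median over all genes from -0.06 to 0.17, and the list medians given for it moved up alongside. For the other settings the cause was not tested.

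Of 351 list values under these alternatives 0 changed sign past the limit, and 30 passed it newly. Of 1631 values of 189 named genes 2 reversed: Pfkfb3 gave -0.54 with the mean of its probes, and Uros -0.027 with normexp. Another 84 values, of 50 named genes, kept their direction but no longer reached 2-fold, 39 of them with normexp and 13 with the mean of probes, and 25 newly reached it. No paired analysis was possible because each group has 1 array and no replicate number in the labels. Leaving out a replicate was not possible for the same reason. The comparison with further probes that do not overlap the main probe was not run, since probe positions were not used here. Normexp was run on median rather than mean spot signals.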
